A study of Macaca mulatta with 27 samples.

Results

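Rhesus macaque embryonic stem cell lines 2706 and 3106 are male lines from 2 embryos of the same parents, sire M106 and dam F88. They were compared directly with each other, array against array, over all non-control probe sets of the Affymetrix rhesus array. The members of the comparison are the 6 arrays that the labels assign to these lines, 3 per line (2706a, 2706b and 2706c, and 3106a, 3106b and 3106c), out of 27 arrays of 10 lines in the series. Each line was grown out from the inner cell mass of its own blastocyst, isolated by immunosurgery, on mitomycin-treated mouse embryonic fibroblasts. The medium held serum replacer, basic FGF, activin A and LIF, and colonies of good morphology were scraped off for RNA. No treatment or genetic change separates the lines in the labels, so the comparison asks how far a pair of brothers differ in expression. Each line stems from 1 embryo, and nothing in the labels tells whether a line's 3 arrays hold RNA of separate cultures. The p-values below therefore cover array-to-array spread only, which could be purely technical, and not the spread between embryos.

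Pluripotent cells of the primate embryo are held in culture by FGF and activin signals, and a core of transcription factors that includes POU5F1, SOX2 and NANOG marks that state. Growth factors, serum and stress switch on immediate early genes such as FOS and the EGR family within a short time and without new protein synthesis. Their transcripts decay quickly, and phosphatases such as DUSP1 that shut off the MAP kinases belong to the same response. In bulk RNA, a change in the number of cells that make a transcript and a change in its amount per cell cannot be told apart.

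The widest differences included immediate early genes that were higher in 3106 and the selenium carrier gene SELENOP, which was lower. On the log2(signal + 16) scale, FOS, a subunit of the AP-1 transcription factor, read 9.43, 8.27 and 8.80 on the arrays of 2706 and 12.72, 12.45 and 12.89 on those of 3106. EGR2, a zinc finger transcription factor, read 10.57, 8.05 and 9.95 in 2706 and 13.32, 13.47 and 12.95 in 3106. SELENOP, whose product carries selenium in secreted form, went the other way, with 13.79, 13.07 and 13.60 in 2706 and 10.90, 10.75 and 11.05 in 3106. None of these 3 genes had overlapping arrays, which the rule for naming genes required. In FOS and SELENOP the gap between the lines was wider than the range within either line, while in EGR2 the range within 2706 was wider than the gap. The mean differences, 3106 minus 2706, were 3.85 ± 0.32 for FOS, 3.72 ± 0.59 for EGR2 and -2.59 ± 0.25 for SELENOP (SE, n = 3 arrays per line), or 14.4-fold and 13.2-fold higher and 6.01-fold lower. With the limma test limited to probe sets called present by the scanner software, as described below, the adjusted p was 0.0023, 0.0281 and 0.0044. Over all probe sets it was 0.0618, 0.227 and 0.0916, and none of the 3 passed.

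Over all 52707 probe sets, limma called 2 (0.00379%) at a Benjamini-Hochberg adjusted p under 0.05, both higher in 3106, while 3253 had an unadjusted p under 0.05 (6.17%). A second, dimmer EGR2 probe set was the first, with 4.91, 4.60 and 4.39 in 2706 and 8.37, 8.20 and 8.11 in 3106 (limma adjusted p = 0.0225). It was called present on 0 arrays of 2706 and on all 3 of 3106, so the difference is a limit, at least 10.9-fold. A probe set of VMO1, a gene named for its relation to a protein of the egg's vitelline membrane, was the other, with 5.08, 4.76 and 5.07 in 2706 and 8.05, 8.63 and 8.33 in 3106 (limma adjusted p = 0.0266). It was present on 0 and 2 arrays and at least 10.3-fold higher, and the other VMO1 probe sets differed by 1.07 and 1.49 and did not pass. These 2 probe sets were named after their values were seen. No gene passed by its brightest probe set over all 52707 (0 of 14134 genes by limma, with 406 higher and 382 lower at an unadjusted p under 0.05), FOS being nearest at an adjusted p of 0.0618.

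With the test limited to the 24038 probe sets called present on at least 3 of the 6 arrays, limma called 56 (0.233%), of which 34 were higher in 3106 (0.141%) and 22 lower (0.0915%). An unadjusted p under 0.05 was reached by 2186 (9.09%). All 56 had arrays that did not overlap between the lines, which the call itself largely fixed. Of the 9156 genes in this test, each by its brightest probe set, 9.33% were higher and 6.07% lower without overlap. Of the 56 probe sets, 33 were present on all 6 arrays. In 10 the call was present in 1 line only, 8 of them in 3106 and 2 in 2706. The smallest difference called was 1.24 on the log2 scale. Of the 56, 33 carry a single gene symbol, for 29 genes, and 23 carry none, 10 higher and 13 lower. By its brightest probe set, 17 of 9156 genes passed, 13 higher (0.142%) and 4 lower (0.0437%).

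The filtered count moved with single arrays. Without 3106b it was 2, without 3106c 6, without 3106a 15, without 2706c 22, without 2706a 36 and without 2706b 132. FOS and the dim EGR2 probe set passed in all 6 of these fits (FOS at an adjusted p of up to 0.0463). CLSPN, SELENOP and 2 unnamed probe sets passed in 5, and CLSPN and SELENOP lost the call without 3106b (adjusted p = 0.065 for each). ATF3 and HSBP1L1 passed in 3. The brightest EGR2 probe set, DUSP1, CENPH, POLR2D and TMEM163 passed in 2, EGR2 reaching an adjusted p of 0.207 without 3106b. ANXA3, LOC694780, LOC716834, NFKBIZ, NOXO1 and PON3 passed in 1, and the brightest NR4A1 probe set in 0. Of the 56, 53 passed in at least 1 of the 6 fits and 17 in at least 3. Over all 52707 probe sets, the count was 0 without any 1 of the 6 arrays.

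**Figure D1:**
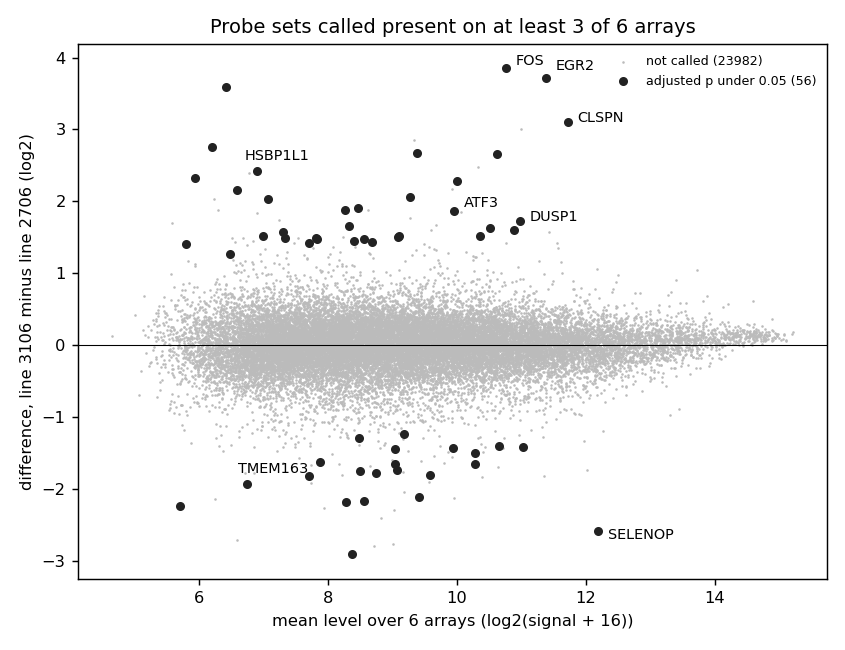
Difference between line 3106 and line 2706 (log2, y axis) against the mean level over the 6 arrays (log2(signal + 16), x axis) for each of the 24038 probe sets called present on at least 3 arrays. Black points are the 56 probe sets at an adjusted p under 0.05, with FOS, EGR2 and CLSPN at the top and SELENOP at the lower right. Most grey points lie within 1 log2 unit of 0.

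Most transcripts were at nearly the same level in the brothers. The median absolute difference was 0.19 log2 units over the 24038 probe sets, and 373 (1.55%) differed by more than 1 unit, 35 by more than 2. Pearson correlations across probe sets were 0.953 to 0.968 for the 6 pairs of arrays of the same line (median 0.961) and 0.946 to 0.968 for the 9 pairs across lines (median 0.958). Genes are not independent replicates, and the ranges overlapped. The series' other male full-sibling pair with 3 arrays each, lines 306 and 106, gave 0 called probe sets by limma in both forms of the test (2212 of 52707, 4.2%, and 1343 of 24005, 5.59%, with an unadjusted p under 0.05), a median absolute difference of 0.20 and 1.20% of probe sets beyond 1 unit. Against the remaining full sibling with 3 arrays, the female line 3006, line 2706 differed at 214 present probe sets (0.917%) and line 3106 at 1152 (4.95%). These counts share arrays with the main comparison. The GAPDH 3'/5' signal ratio is higher in degraded RNA. It was 6.15, 2.98 and 3.41 on the arrays of 3006 and 1.49 to 1.92 on those of 2706 and 3106. On arrays 106a, 106c and 106d it was 1.96, 4.61 and 1.62, with present calls of 46.9%, 38.2% and 45.1%. On the arrays of 306 it was 2.05, 1.73 and 2.57. The part of this ratio in the counts for 306 and 106 and for 3006 was not tested.

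On the 6 arrays of 2706 and 3106, median signal ran from 94.1 to 128.6 and present calls from 43.1% to 46.3%. The GAPDH ratio ran from 1.49 to 1.75 in 3106 and from 1.89 to 1.92 in 2706. It was thus higher on every array of 2706. The actin 3'/5' ratio overlapped between the lines, at 5.25, 5.65 and 3.57 in 2706 and 3.88, 5.23 and 3.37 in 3106. The part of these ratios in the results was not tested.

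The 5 pluripotency genes followed throughout did not pass the test in either form. POU5F1, the central pluripotency factor, read 14.07, 14.27 and 14.20 in 2706 and 14.10, 14.42 and 14.55 in 3106, with a difference of 0.18 ± 0.22. SOX2, its partner on DNA, differed by -0.06 ± 0.21, NANOG by 0.15 ± 0.28 and the de novo DNA methyltransferase DNMT3B by 0.10 ± 0.23. The arrays of all 4 overlapped between lines, and none passed (limma adjusted p of 0.847 to 0.962 with the present-call filter). DPPA4, a chromatin-associated pluripotency gene, read 11.47, 11.41 and 11.65 in 2706 and 12.04, 11.88 and 12.46 in 3106. Its arrays did not overlap, but the difference of 0.62 ± 0.23 did not pass (limma adjusted p = 0.419 with the filter). The arrays of the zinc finger factor SALL4 did not overlap either (0.81 ± 0.32, limma adjusted p = 0.437 with the filter), nor did those of the adhesion gene EPCAM (0.16). GDF3, a TGF-beta family ligand, differed the other way, with 8.04, 7.84 and 7.27 in 2706 and 6.88, 5.52 and 7.25 in 3106. Its arrays did not overlap, it was present on 3 and 1 arrays, and the difference of -1.17 ± 0.46 did not pass (limma adjusted p = 0.430 with the filter). Of the 21 measured pluripotency genes, 15 were present on all 6 arrays and 3 on none.

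All 7 pluripotent markers were present on all 6 arrays, and the log2 of their summed signal was 15.59 to 15.68 in 2706 and 15.64 to 15.92 in 3106. Markers of other cell types were present in part. The trophoblast markers GATA3 and TFAP2A, the endoderm markers GATA6 and AFP and the fibroblast markers COL1A1, COL1A2 and THY1 were present on all 6 arrays. SOX17, FOXA2 and MESP1 were present on 5. GATA3 averaged 7.20 ± 0.09 in 2706 and 7.93 ± 0.37 in 3106 (SD, n = 3), without overlap, and GATA6 10.07 ± 0.93 and 9.31 ± 0.82, with overlap. The trophoblast markers CDX2 and KRT7, the mesoderm marker TBXT, the neural markers PAX6, NEUROG2 and DCX and the blood markers PTPRC and GATA1 were present on 0 of the 6 arrays. The summed level was 8.66 to 9.04 in 2706 and 8.92 to 9.56 in 3106 for 5 trophoblast markers, and 10.82 to 11.80 and 10.67 to 11.32 for 5 endoderm markers. For 5 mesoderm markers it was 9.22 to 9.65 and 9.30 to 9.52, for 3 neural markers 6.61 to 7.36 and 6.60 to 7.67, and for 2 blood markers 6.42 to 7.14 and 6.01 to 7.04. Fibroblast genes summed to 11.87 to 12.55 in 2706 and 12.13 to 12.38 in 3106, with all 6 measured. The feeder cells are mouse, and their part in these signals was not tested. Arrays did not overlap for COL1A2 and LUM, higher in 3106, and DCN, lower, where 7.83% of all genes were higher and 5.50% lower without overlap. LUM was present on 0 arrays of 2706 and 1 of 3106, and DCN on 2 of each line. In each of the marker lists the ranges of the lines overlapped, and 0 markers passed the test.

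The immediate early list held 19 measured genes of 27. All counts in this paragraph stand for a gene by its brightest probe set. Of the 19, 16 had a higher mean in 3106 and 3 a lower one, with a median difference of 0.88, against 0.04 over all 14134 genes. The arrays did not overlap for 11 of them, all higher in 3106, where 7.83% of all genes were higher without overlap and 5.50% lower. An unadjusted p under 0.05 was reached by 10, all higher (background 2.87% higher and 2.70% lower). The present-call fit called 4 (FOS, EGR2, ATF3 and NR4A1), where 0.142% of the 9156 genes tested were called higher. Its counts are a description, since the list was chosen with earlier results of these data known.

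ATF3, a stress-induced transcription factor, read 8.82, 8.88 and 9.36 in 2706 and 10.39, 11.07 and 11.20 in 3106, 3.65-fold higher (1.87 ± 0.29, limma adjusted p = 0.0264 with the filter). Its other probe sets, at -0.04 and -0.22, did not show this. NR4A1, an orphan nuclear receptor gene, read 9.90, 9.20 and 9.67 in 2706 and 10.81, 11.35 and 11.19 in 3106 (1.53 ± 0.27, limma adjusted p = 0.0474 with the filter). That call was lost without any 1 of the 6 arrays, at adjusted p of 0.0514 to 0.268, while a second NR4A1 probe set, 2.05 higher, kept its call in 2 of those 6 fits. NR4A2, from the same receptor family, was called in 2 dim probe sets present only in 3106, at least 6.12-fold and 4.46-fold higher. Its brightest probe set read -0.28 ± 0.23, so the probe sets of NR4A2 disagree.

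Other members were higher on every array of 3106 without passing. EGR4, of the EGR family, read 9, 6.29 and 8.45 in 2706 and 10.95, 11.03 and 10.30 in 3106. ARC, known as an activity-induced gene in neurons, read 9.73, 7.30 and 9.52 in 2706 and 10.40, 10.71 and 10.45 in 3106. KLF6, a zinc finger factor, read 9.45, 8.85 and 9.35 against 10.40, 10.44 and 10.67. JUNB, an AP-1 subunit, read 8.67, 8.81 and 9.12 against 9.79, 10.50 and 10.06. For these 4 genes the limma adjusted p with the filter was 0.139, 0.379, 0.0608 and 0.0961. IER2, CCN1 and JUND completed the 11, the last of them present on 0 arrays. At the other end of the list were FOSL2, another AP-1 subunit, at -0.83 ± 0.50, and MCL1, an inhibitor of cell death, at 0.06 ± 0.22.

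**Figure D2:**
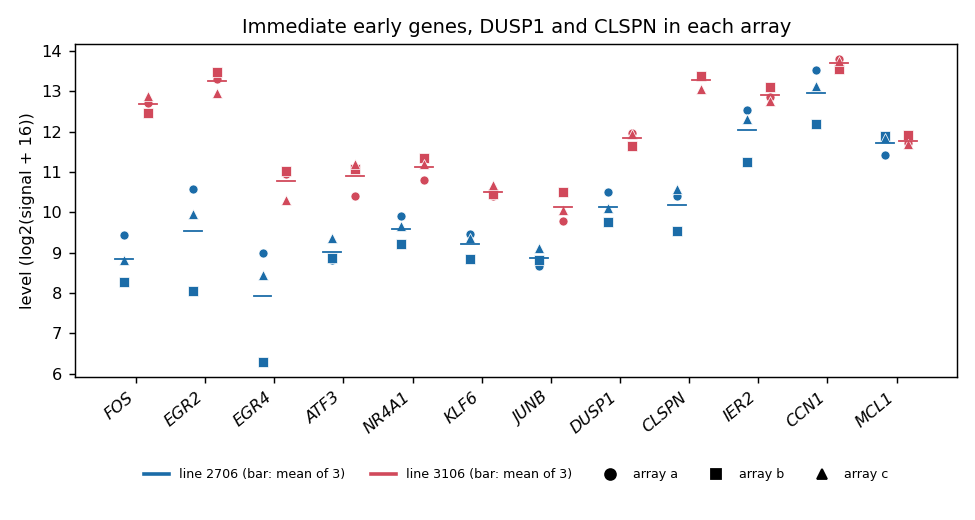
Level on each array (log2(signal + 16), y axis) of 10 immediate early genes, DUSP1 and CLSPN in line 2706 (blue) and line 3106 (red). Symbols mark arrays a, b and c, and horizontal bars are means of 3 arrays. FOS, EGR2 and CLSPN show the widest gaps, and the arrays of MCL1 overlap. Array 2706b is the lowest of its line for FOS, EGR2 and EGR4.

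Array 2706b was the lowest array of its line for many of these genes. The mean level of the 19 genes was 9.81, 8.93 and 9.63 on arrays a, b and c of 2706 and 10.58, 10.73 and 10.58 on those of 3106. Without 2706b the list's median difference was 0.74, and over the other left-out arrays it ran from 0.90 to 1.14. The difference in FOS without 2706b was 3.57 and that in EGR2 was 2.98. Both passed with the filter, at limma adjusted p of 9.1e-04 and 0.0023. For EGR2, leaving out 2706b also narrowed the spread within 2706. Its brightest probe set kept the call in only 2 of the 6 filtered fits without 1 array.

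DUSP1, a nuclear phosphatase that inactivates MAP kinases, read 10.50, 9.76 and 10.10 in 2706 and 11.98, 11.65 and 11.93 in 3106, 3.32-fold higher (1.73 ± 0.26, limma adjusted p = 0.0247 with the filter). It was the 1 gene called of the 18 measured FGF and MAP kinase feedback genes, where 0.142% of the 9156 genes tested were called higher and 0.0437% lower. The list as a whole did not lean that way, with 6 genes higher, 12 lower and a median of -0.12. FGF2 and FGF4, both FGF ligands, had a higher mean in 3106 (0.75 ± 0.26 and 1.14 ± 0.37), and the phosphatase DUSP5 and PHLDA1, both induced by ERK signalling, a lower one (-1.65 ± 0.68 and -1.69 ± 0.67). None of these 4 passed, with limma adjusted p of 0.331 to 0.454 with the filter. The feedback inhibitors SPRY2 and SPRY4 differed by 0.24 ± 0.21 and -0.33 ± 0.33, and the FGF target ETV4 by -0.28 ± 0.23. The arrays of SPRY4 and ETV4 overlapped between lines, as did those of SPRY2.

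CLSPN, which encodes claspin, a mediator of the DNA replication checkpoint, showed a difference of the size seen in the immediate early genes. It read 10.40, 9.54 and 10.57 in 2706 and 13.39, 13.38 and 13.06 in 3106, 8.60-fold higher (3.10 ± 0.31, limma adjusted p = 0.0044 with the filter and 0.0916 without). A second CLSPN probe set, present on 0 arrays, differed by 0.81 ± 0.42. Cell cycle genes as a list differed far less. Of 25 measured, 19 were higher and 6 lower, with a median of 0.18, and 0 were called. Over all genes 55.5% were higher, with a median of 0.04. Without overlap, 12% of the list were higher and 4% lower, against 7.83% and 5.50% of all genes. AURKA and CCNB1, a mitotic kinase and a mitotic cyclin, were higher without overlap, by 0.48 and 0.35, and did not pass. The cyclin CCNE2 went the other way, at -1.39, with overlap and without passing.

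The remaining genes named as higher in 3106 had smaller differences. HSBP1L1, named for its likeness to a heat shock factor binding protein, was present on 0 arrays of 2706 (5.07, 6.12 and 5.90) and on all 3 of 3106 (7.95, 8.20 and 8.20), at least 5.35-fold higher (limma adjusted p = 0.0121 with the filter). CENPH, a protein of the kinetochore, read 7.67, 7.54 and 7.31 against 9.36, 9.17 and 8.97, 3.16-fold higher (limma adjusted p = 0.0154 with the filter). POLR2D, a subunit of RNA polymerase II, read 8.24, 8.31 and 8.46 against 9.83, 10.00 and 9.69, 2.83-fold higher (limma adjusted p = 0.0178 with the filter). The rule that named these 3 genes required arrays without overlap. The arrays of 2706 were more scattered in HSBP1L1 than in CENPH and POLR2D. NFKBIZ, a nuclear member of the I kappa B family, was 1.52 higher, PON3, a paraoxonase, 1.50, and LOC694780 1.52, with limma adjusted p of 0.0264 to 0.0471 with the filter. NOXO1, an organiser of an NADPH oxidase, fell just outside the naming rule. It was present only in 3106 and at least 2.82-fold higher, and it was named after its values were seen.

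Fewer named genes were lower in 3106. A second SELENOP probe set differed in the same direction, at 10.97, 10.08 and 10.37 in 2706 and 8.49, 7.87 and 8.75 in 3106 (-2.11 ± 0.33, limma adjusted p = 0.0264 with the filter). TMEM163, a membrane protein of the zinc efflux family, read 8.33, 8.65 and 8.89 in 2706 and 6.57, 7.04 and 6.79 in 3106. It was present on 3 arrays of 2706 and 0 of 3106, which makes it at least 3.54-fold lower (limma adjusted p = 0.0154 with the filter). ANXA3, a calcium-dependent phospholipid-binding protein, read 11.10, 9.92 and 10.43 against 8.78, 8.59 and 8.69, 3.47-fold lower (-1.80 ± 0.32, limma adjusted p = 0.0474 with the filter). The uncharacterised LOC716834 was 1.50 log2 units lower (limma adjusted p = 0.0264 with the filter).

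In all, 12 genes were called only by a probe set that is not their brightest. NR4A2 is given above, and the others are named here after their values were seen. OAS1, an interferon-induced antiviral enzyme, was 1.89 ± 0.23 higher in 3106 by 1 probe set, and its brightest probe set read 11.02, 11.08 and 11.04 in 2706 and 11.99, 11.94 and 11.89 in 3106 (0.89 ± 0.19, limma adjusted p = 0.113 with the filter). Its 3 other probe sets differed by -0.32 to -0.04. PRICKLE1, a gene of planar cell polarity, was higher in each of its 3 probe sets, by 1.03 to 1.61, 1 of them called. MTMR2, a phosphoinositide phosphatase, and KDSR, an enzyme of sphingolipid synthesis, were lower by 1.75 and 1.41 in 1 probe set each. The other called genes were LUC7L2, SLC16A10, SLC25A25, DOCK11 and RBM46, higher in 3106, and GPATCH2 and ARGLU1, lower, each by 1 probe set. The brightest ARGLU1 probe set differed by -0.40 (limma adjusted p = 0.551 with the filter).

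Among the unnamed probe sets called, the largest differences were 2.67 for MmugDNA.13306.1.S1_at, present only in 3106, and 2.66 for MmugDNA.18321.1.S1_at. In the other direction they were -2.91 for MmugDNA.37771.1.S1_at and -2.24 for MmugDNA.2386.1.S1_at, the latter present only in 2706. MmugDNA.37771.1.S1_at read 9.42, 9.66 and 10.40 in 2706 and 6.46, 7.13 and 7.17 in 3106.

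The called probe sets were also set against the other 8 lines. The mean of 3106 alone lay outside the range of the other 8 line means in 22 of the 56, that of 2706 alone in 7, both in 11 and neither in 16. In all, 3106 was outside in 58.9% and 2706 in 32.1% of the 56, against 19.7% and 15.3% of all 24038 probe sets present. Among the 34 higher calls, 3106 was outside in 64.7% and 2706 in 20.6%, and among the 22 lower calls each was outside in 50%. Probe sets were called because these lines differ, so a higher share was fixed in part by the choice. FOS averaged 12.68 ± 0.22 in 3106 and 8.83 ± 0.58 in 2706 (SD, n = 3), where the highest of the other lines, 3006, stood at 10.82 ± 0.42, and 2706 ranked 5 of 10. CLSPN averaged 13.27 ± 0.19 in 3106 and 10.17 ± 0.55 in 2706, against 12.01 ± 0.43 in 3006. For both genes 3106 was above all lines, and 2706 lay within the range of the others.

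SELENOP had the reverse position. Line 2706 was the highest of 10 at 13.49 ± 0.37, with line 2406 next at 13.25 ± 0.28, and the gap between them was within their spread. Line 3106, at 10.90 ± 0.15, lay in a low group with 906 (10.84 ± 0.34), 2906 (10.86, 1 array) and 3006 (11.06 ± 0.52). POLR2D set both brothers apart, 3106 being the highest of 10 lines (9.84 ± 0.15) and 2706 the lowest (8.34 ± 0.11). CENPH stood at 7.51 ± 0.18 in 2706, near 7.42 ± 0.07 in 3006 and 7.34 in 2906, which share its parents, and at 9.17 ± 0.19 in 3106, near 9.13 ± 0.19 in 306. On ATF3 and NR4A1, 3106 and 3006 were close together, at 10.89 ± 0.43 and 10.58 ± 0.30 for ATF3 and 11.12 ± 0.28 and 11.30 ± 0.22 for NR4A1.

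**Figure D3:**
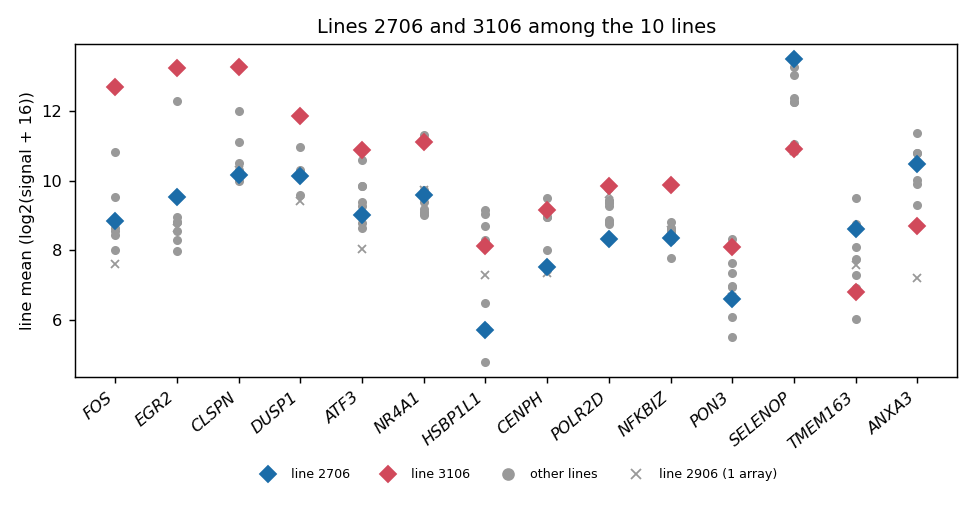
Line means (log2(signal + 16), y axis) of 14 named genes in line 2706 (blue diamonds), line 3106 (red diamonds), 7 other lines (grey circles) and line 2906 with 1 array (grey crosses). Line 3106 is above all other lines for FOS, EGR2, CLSPN and DUSP1, and line 2706 is the highest for SELENOP and the lowest for POLR2D.

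EOMES, a T-box factor of mesendoderm and trophoblast, read 9.74, 9.59 and 9.34 in 2706 and 8.28, 7.80 and 8.44 in 3106. Its arrays did not overlap, and at -1.38 ± 0.25 it narrowly missed the threshold (limma adjusted p = 0.052 with the filter), its second probe set differing by -0.71 ± 0.21. Line 2706 had the highest EOMES of the 10 lines, at 9.56 ± 0.20, and 2406 was at 9.41 ± 1.16. The medians of the trophoblast, endoderm, mesoderm and neural ectoderm lists were -0.05, 0.02, 0.08 and 0.15, with 0 genes called in each. In TGF-beta and nodal signalling, the inhibitory SMAD7 differed by 1.01 ± 0.28 and the activin antagonist FST by -0.64 ± 0.23. Neither passed (limma adjusted p of 0.238 and 0.389 with the filter), and NODAL itself differed by -0.19 ± 0.27. BMP and WNT signalling genes had medians of 0.25 and -0.15 and 0 calls.

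Imprinted genes, which are read from 1 parental copy, had 5 of 19 measured members higher in 3106 without overlap and 0 lower. Over all genes, 7.83% were higher and 5.50% lower without overlap. By mean level, 12 of the 19 were higher in 3106 and 7 lower, with a median difference of 0.19 and a lowest of -1.47. GRB10, a growth factor receptor adaptor, read 10.92, 10.98 and 11.09 in 2706 and 11.33, 12.09 and 11.41 in 3106. PEG3 differed by 0.69 ± 0.25, DLK1 by 0.61 ± 0.21 and H19 by 0.39 ± 0.21. A second H19 probe set averaged 8.40 in 2706 and 8.45 in 3106. IGF2, a fetal growth factor, differed by 1.59 ± 0.22 but was present on 0 of the 6 arrays. None of the 5 passed, and SNRPN, at 0.19 ± 0.21, did not either. HBE1, embryonic beta-type globin, also differed widely (4.50, 4.84 and 4.87 against 7.01, 7.24 and 7.14) while present on 0 arrays, so it was left out of the filtered test and missed the threshold in the full one (limma adjusted p = 0.0705).

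Heat shock and chaperone genes had a median of 0.18, with the co-chaperone DNAJB1 at 0.83 and no call. Genes of the ATF4 and unfolded protein response had a median of 0.20, hypoxia and glycolysis genes 0.15, cholesterol synthesis genes 0.16, p53 targets -0.06, interferon response genes 0.02 and antigen presentation genes 0.06, against 0.04 for all genes. None of these lists had a called gene by its brightest probe set. GADD45B, a stress-induced gene placed on the p53 target list, read 10.83, 10.32 and 10.90 in 2706 and 11.76, 12.02 and 11.78 in 3106 (1.17 ± 0.24, limma adjusted p = 0.0895 with the filter). The MHC class I gene MAMU-I differed by -1.82 ± 0.33 (limma adjusted p = 0.052 with the filter), while its other probe sets differed by -0.52 and 0.77. Fibroblast and matrix genes had a median of 0.01, the collagen gene COL1A2 differing by 0.74 ± 0.21 without passing.

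Line 2706 was not uniform over its arrays. MT2A, a metal-binding metallothionein, read 14.03 on array a, 10.52 on b and 14.09 on c, against 11, 11.36 and 11.10 in 3106. KLF5, a zinc finger factor of epithelia and stem cells, read 12.17, 8.68 and 10.70 in 2706 and 8.46, 8.39 and 9.02 in 3106. PYROXD1, an oxidoreductase gene, read 11.36, 6.86 and 10.25 in 2706 and 12.51, 12.77 and 12.20 in 3106. In MT2A and KLF5 array b lay near the level of 3106 and arrays a and c well above it, and in PYROXD1 array b lay far below both. The lines' mean differences, -1.73 ± 0.88, -1.89 ± 0.77 and 3.00 ± 1.01, did not pass with or without the filter. With 2706b left out, MT2A and KLF5 passed with the filter (limma adjusted p = 0.0011 and 0.018) and PYROXD1 did not (0.070). In MT2A and KLF5 the array left out was the one nearest 3106. The choice fixed their outcome in part, so it is no support for a difference between the lines.

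The order a above c above b held in 2706 for KLF5, PYROXD1, PHLDA1, the imprinted PHLDA2, the urokinase PLAU, the secreted phosphoprotein SPP1, the coagulation initiator F3, the integrin ITGB8 and DUSP5. These genes and MT2A were named after their values were seen. Over the 24038 present probe sets, the SD among arrays exceeded 1 log2 unit in 207 probe sets of 2706 and 126 of 3106. The array farthest from the others was 2706a in 106 of the 207, 2706b in 78 and 2706c in 23. In 3106 it was 3106b in 78 of the 126, 3106a in 33 and 3106c in 15. The median SD over all present probe sets was similar in the lines, 0.24 in 2706 and 0.25 in 3106. Array 2706b had a GAPDH ratio of 1.92, against 1.89 and 1.91 on 2706a and 2706c, and present calls of 44.4%, against 43.1% and 46.3%. Its actin 3'/5' ratio was 5.65, against 5.25 and 3.57. The part of RNA quality in this spread was not tested.

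**Figure D4:**
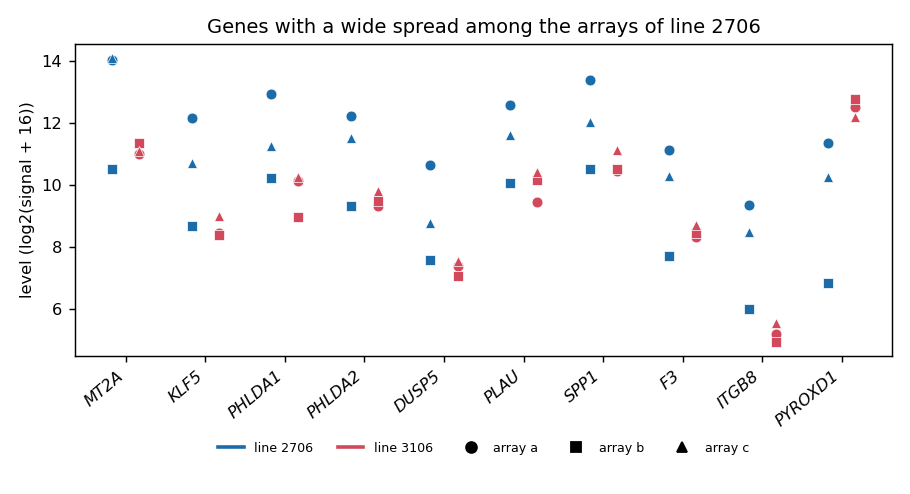
Level on each array (log2(signal + 16), y axis) of 10 genes with a wide spread among the arrays of line 2706 (blue), beside line 3106 (red), with symbols for arrays a, b and c. For MT2A, KLF5 and F3 array 2706b is at or below the level of 3106 while 2706a and 2706c are above it. For PYROXD1 array 2706b is at 6.86.

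The genes of chromosome 17 were mostly lower in 3106. The median difference over the 234 measured genes of chromosome 17 was -0.17, with 69.2% of them lower in 3106. The medians of the other 20 chromosomes compared lay between -0.02 and 0.11. On chromosome 17, 54 genes (23.1%) were lower in 3106 without overlap and 10 (4.27%) higher, where over all 14134 genes 5.50% were lower and 7.83% higher. Leaving out each array in turn, the median stayed between -0.19 and -0.16. This chromosome was singled out after the medians of all had been seen, and the values are a description.

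Each array of 2706 stood high for this chromosome. Relative to each array's own median over genes, the 159 chromosome 17 genes present on at least 14 of the 27 arrays had a median of 0.15, 0.15 and 0.23 on arrays a, b and c of 2706. On the arrays of 3106 it was 0, -0.13 and -0.03, and on the 21 arrays of the other 8 lines it ran from -0.12 to 0.07. All 3 arrays of 2706 were thus above the other 24, while on no other chromosome was more than 1 array of 2706 outside the range of the other 24. On chromosome 17, 3106b was the lowest array of the series and the other arrays of 3106 lay within the range of the 21. In gene order, the first, middle and last group of 53 genes had median differences of -0.30, -0.10 and -0.18. DNA copy number was not measured here.

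The differences of single chromosome 17 genes were modest, and those given here were named after their values were seen. DCLK1, a doublecortin-like kinase, read 10.70, 10.90 and 10.89 in 2706 and 9.74, 9.57 and 9.86 in 3106 (-1.11 ± 0.20, limma adjusted p = 0.0571 with the filter). SHISA2, a modulator of WNT and FGF receptors, read 13.79, 13.95 and 13.93 against 13.27, 12.82 and 12.91. PAN3, a subunit of a deadenylase, read 11.43, 11.35 and 11.45 against 10.78, 10.82 and 10.80. In each of the 3 genes every array of 3106 lay below every array of 2706. AMER2, a WNT pathway regulator, and EEF1AKMT1, a lysine methyltransferase, had differences of -1.42 ± 0.30 and -1.33 ± 0.34. PCDH8, a protocadherin of the same chromosome, went the other way, from 10.14, 11.36 and 11.17 in 2706 to 12.07, 12.29 and 12.39 in 3106. None of these 6 genes passed by its brightest probe set in the fits on the 6 arrays. In the fit on all 27 arrays DCLK1 and SHISA2 passed (limma adjusted p = 0.0296 and 0.0345, and 0.0069 and 0.0072 with the filter), and PAN3 passed with the filter (0.0189). AMER2 passed with the filter when 2706b was left out (0.0425). That array was the one of 2706 nearest 3106 in AMER2, so leaving it out fixed the outcome in part. With the filter on the 6 arrays, the 1 called probe set of a named gene there was the dimmer ARGLU1 probe set, lower by 1.24, whose call was lost without any 1 of the 6 arrays.

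**Figure D5:**
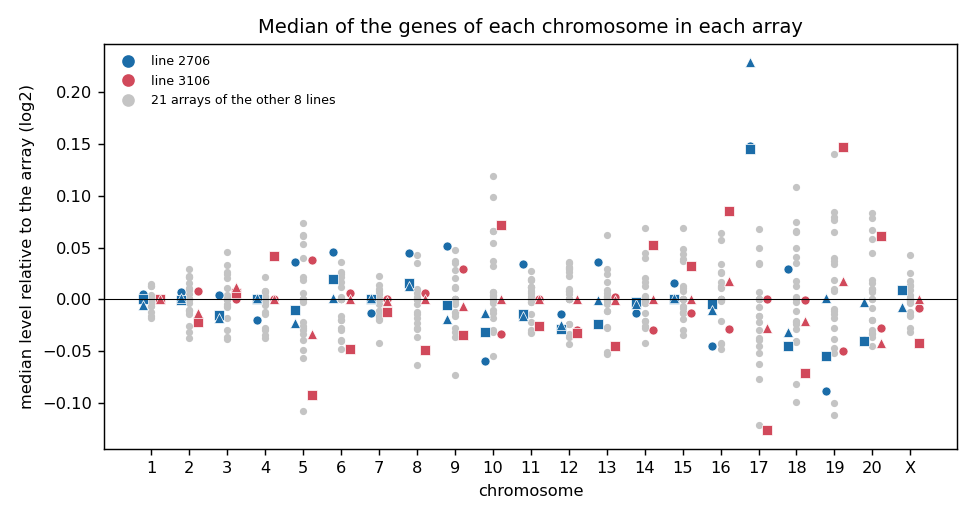
Median level of each chromosome's genes relative to the array's own median over all genes (log2, y axis), by chromosome (x axis), on the arrays of line 2706 (blue), line 3106 (red) and the 21 arrays of the other 8 lines (grey), with symbols for arrays a, b and c. On chromosome 17 the 3 arrays of 2706 lie between 0.15 and 0.23, above all others.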

How the data were processed

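Per the labels' protocols, biotinylated cRNA made from total RNA was hybridised to one-colour Affymetrix arrays for the rhesus genome. The submitters' processing notes name GCOS as the software behind the deposited intensity values, and give no setting of it in the sources used here. Their mean, with 2% trimmed at each end, was 500.0345 to 500.0414 on every array, so the authors' values were already scaled. A second deposited table gave a detection call (present, marginal or absent) per probe set and filled 1 blank cell, and 0 other cells differed. Arrays limit the precision by their number, 3 per line.

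Of 52865 probe sets, 158 controls were left out. Values became log2(signal + 16) and were tested with lmFit and eBayes of limma 3.58.1 in R 4.3.3, 3106 minus 2706, on the 6 arrays, with Benjamini-Hochberg adjustment over all 52707 probe sets. Folds are on that scale and understate dim genes. The filtered test kept probe sets present on at least 3 of the 6 arrays. Each SE after ± is the moderated SE of the limma fit over all probe sets, also beside a p of the filtered test. A fold against a line with 0 present calls is given as a lower limit, from the higher of the probe set's own value and the lowest present signal on each array. Symbols came from the platform annotation, updated through the RefSeq annotation of the macaque genome, which also gave the chromosomes. There were 24959 probe sets with 1 symbol, 358 with several and 27390 with none, and 24616 matched RefSeq. A gene was stood for by its brightest probe set over the 27 arrays, giving 14134 genes.

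Genes were named if called, present on all 3 arrays of the higher line and not overlapping, up to 12 per direction. Up to 4 members of lists with called members, 5 pluripotency genes and 2 unnamed probe sets per direction were added. The members, the 23 gene lists (22 with measured genes) and the rules were chosen with earlier results of these data known. The array letters did not pair the arrays: same-letter deviations correlated at -0.013, 0.010 and -0.093. Alternatives were pseudocounts of 1 and 64, filters, quantile normalization, median centring, a fit on all 27 arrays, a trended robust fit, a block on the array letter, the mean of a gene's probe sets and leaving out each array.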

Additional observations from a re-analysis of the deposited data

How the results depend on the processing

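The count of called probe sets over all 52707, 2 as reported, was 0 with a pseudocount of 1 and 10 with 64, 45 among probe sets above the array median, 56 among those present, 86 with the fit on all 27 arrays and 39 with a trended robust fit. Quantile normalization gave 2 and median centring 3. With a block on the array letter it was 0, and without each array in turn it ranged from 0 to 0. Among present probe sets it ranged from 2 to 132 without each array, the values being 36, 132 and 22 without 2706a, b and c and 15, 2 and 6 without 3106a, b and c, and was 163 with all 27 arrays. The gene count, 0 as reported, was 3 with a pseudocount of 64, 14 above the array median, 17 among present probe sets, 1 with median centring, 27 with all 27 arrays, 11 with the trended robust fit and 8 with the mean of a gene's probe sets. The causes of these shifts in the counts were not tested. The leave-one-out fits with the present-call filter were chosen after seeing the data.

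The immediate early median stayed between 0.74 and 1.14, and the chromosome 17 median between -0.19 and -0.16. Of the alternative values for 21 named genes, 356 kept their direction and side of the threshold, 100 kept their direction and passed where the unfiltered test had not, and 6 changed sign, none of these past the threshold. SOX2 was 0.0046 without 2706a and 0.048 without 3106b, and NANOG -0.10 without 2706c, with and without the present-call filter. Without each array in turn, SOX2 ranged from -0.12 to 0.048 and NANOG from -0.10 to 0.31. With 3 arrays per line, changes near 1 log2 unit were mostly not detectable over all probe sets. This rests on simulated arrays with normal noise, using each probe set's own mean and pooled within-line SD. There the unfiltered test recovered 1% of 100 planted changes of 1 log2 unit and 43% of 100 changes of 2 units. It made 2 false calls among 52507 unchanged probe sets. The SDs were estimated from 3 arrays per line and taken as true, so recovery on the real arrays may differ.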
